A study of Mus musculus with 8 samples.

Results

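A set of 9 genes of the oligodendrocyte, taken by symbol as *Mbp*, *Mag*, *Mog*, *Mobp*, *Cnp*, *Cldn11*, *Ugt8a*, *Olig1* and *Olig2*, was examined in poly(A)-selected RNA of right cortex in bigenic and control mice. All 9 were found among the 28662 transcripts of the table of normalized counts, and all 9 were among the 10588 genes tested. Rows were taken by symbol, which uses no measured value, but the members were chosen with earlier results of these data known. The bigenic mice (n = 4) carried Camk2a-tTa and deltaNLS-hTDP-43, a human TDP-43 whose nuclear localization signal is mutated, under a tetracycline-responsive promoter. The controls (n = 4) were nontransgenic, and all 8 mice were C57BL/6. Both groups ate doxycycline, which keeps the transgene off, until 28 days of age and were killed 10 days after its removal. The Camk2a promoter is used to drive expression in excitatory neurons of the forebrain, and mice with tTa alone are not among the groups analysed here, so effects of tTa and of deltaNLS-hTDP-43 cannot be told apart here.

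Oligodendrocytes wrap axons in many layers of their own membrane, called myelin, which insulates the axon and speeds conduction. They arise from precursor cells that keep dividing in the cortex after birth, and cortical myelin is still being added at the age studied. *Olig1* and *Olig2* encode transcription factors of the whole lineage, whereas the other genes encode proteins or enzymes used mainly once a cell begins to make myelin.

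The tables tie each column to a group but not to a numbered animal, so mice are called A to D by the place of their column within the group. Normalized counts summed to between 20.1 M and 22.0 M per mouse, and an estimated 10.6 M to 31.9 M reads per mouse lay on genes. The transgene transcript (uc999vvf.1) had 29375 to 41550 normalized counts in the bigenic group and 5 to 80 in the controls, which matches the group labels of all 8 mice. Bigenic mouse B stood apart, with the shallowest library and a score of 46.0 on the first principal component, where the other bigenic mice scored 12.8 to 15.1. On the second component it scored -22.3, and the other bigenic mice scored 15.0 to 15.9. The 9 genes are therefore given with and without this mouse. Of 15 neuronal markers 14 were among the genes tested. P-values measure only the spread between these mice.

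The genes do not overlap one another. In mm9, *Mobp* spans chr9:120058860-120090602 on the plus strand, *Mag* chr7:31684202-31699851 on the minus strand, *Cnp* chr11:100436218-100453043 on the plus strand and *Mog* chr17:37147691-37160343 on the minus strand. *Olig2* (chr16:91225795-91228922) and *Olig1* (chr16:91270014-91272184) are neighbours on the plus strand. *Cldn11* lies at chr3:31048868-31063246 on the plus strand and *Ugt8a* at chr3:125568277-125641468 on the minus strand. Of the 9, *Cnp* overlaps another gene, *Dnajc7* on the opposite strand. The libraries kept strand, but use of strand in the counting is not stated, so reads of *Cnp* and *Dnajc7* may not be fully separated. Between 99.5% and 100% of the 50-base stretches of each gene's exons occur once in the genome.

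Short stretches of the RefSeq promoters (GRCm38.p6, 250 bases before to 50 after each start) are shown because SOX10 and MYRF, the factors that switch on myelin genes, bind short DNA words that can be read directly. Promoter entries matched 7 of the 9 genes. ACAAAG, a SOX word, was searched on both strands and was present in the promoters of *Mobp*, *Mag* and *Cnp*, and in 21.0% of the 27025 genes with an entry. CTGGCAC, a form of the MYRF word, was present in *Mag* and *Cnp* and in 5.73% of genes, and CTGGTAC, its other form, in *Mog* and in 2.6% of genes. Each line gives 30 bases on the strand of the gene, and capitals mark the word or its reverse complement, with its position counted from the annotated start. No position is given for *Mag*, whose stretches are held by the entries of 2 starts.
Mobp, chr9:120149532-120149561, SOX word at -198: ttttgtttcactCTTTGTttcaactttctt
Mag, chr7:30914972-30915001, SOX word: tgacaagggcccCTTTGTgcccccctcccc
Cnp, chr11:100574760-100574789, SOX word at -167: aacttttaaggaACAAAGaggtggcgtggc
Mag, chr7:30914914-30914943, MYRF word: ggcaggcggcccCTGGCACccagggggcag
Cnp, chr11:100574846-100574875, MYRF word at -81: gaccgctgcttcCTGGCACtcaggtttcca
Mog, chr17:37023464-37023493, MYRF word at -83: gagaaatgcccaGTACCAGgcagccactgc
*Mobp* held 6 matches to ACAAAG within its 300 bases. The other words searched were ACAATG, found in *Olig2* and in 14.3% of genes, AACAAT, which overlaps it and was found in *Olig2* and in 12.2%, CAGCTG, found in none of the 7 and in 18.3%, and CANNTG, found in *Mag*, *Cnp* and *Ugt8a* and in 75.0%. A match describes the letters and is not evidence that a factor binds there.

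Values are normalized counts, reads per gene scaled per mouse by the authors, and were compared on the log2 scale with limma, a gene being called at a Benjamini-Hochberg adjusted p-value below 0.05 over all genes tested. Of the 9 genes 1, *Mobp*, was higher in the bigenic mice (log2(fold change) = 0.60, standard error 0.19, limma adjusted p-value = 0.0317), and 0 of 9 were lower. Among all 10588 genes, 35.9% passed the same test, 20.5% higher and 15.4% lower. The median log2(fold change) over the 9 genes was -0.16, and over all genes it was 0.03. Without bigenic mouse B the 9-gene median was 0.04 and *Mobp* was again the 1 gene called, when 45.5% of all genes were. At an unadjusted p below 0.05, 0 of the 9 were lower, and with voom on approximate reads 0 were lower, but with limma array weights 1 was, *Mbp*. The ranges of the 2 groups overlapped for each of the 9 genes, while they did not overlap for 39.0% of all genes, 22.3% with the bigenic mice higher and 16.7% with them lower. In bulk cortex, a change in the number of oligodendrocytes and a change in RNA per cell cannot be told apart.

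**Figure D1:**
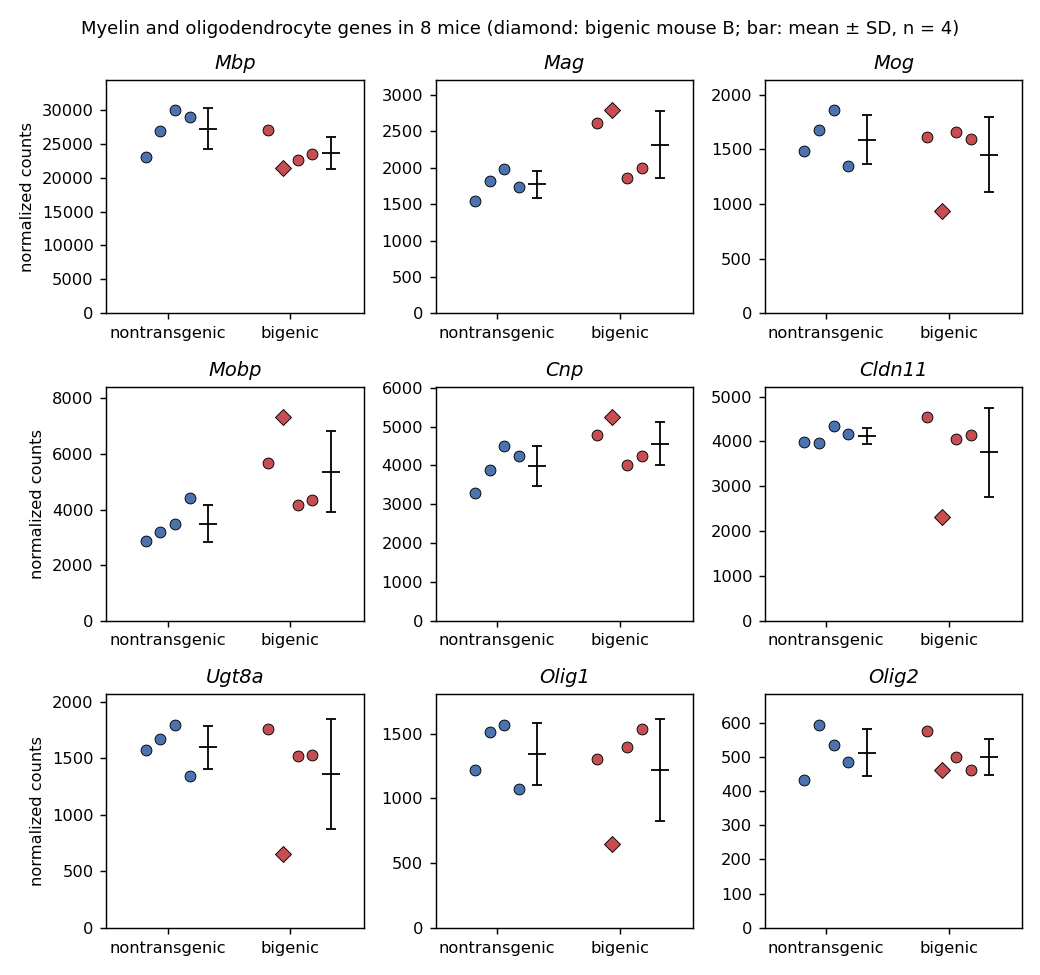
Normalized counts (linear axis from 0) of each of the 9 genes in the 4 nontransgenic (blue) and 4 bigenic (red) mice, ordered A to D from left to right, with the mean and SD of each group. The diamond is bigenic mouse B, which had the highest bigenic value for Mag, Mobp and Cnp and fell below the other 3 bigenic mice for Mbp, Mog, Cldn11, Ugt8a and Olig1.

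*Mobp* encodes a small basic protein of compact myelin, where it sits at the cytoplasmic faces of the membrane layers. Its normalized counts were 5658, 7313, 4157 and 4341 in bigenic mice A to D and 2862, 3188, 3480 and 4417 in nontransgenic mice A to D. The highest nontransgenic mouse, D, lay above the bigenic mice C and D, and the other 3 nontransgenic mice lay below every bigenic mouse. The group means were 5367 ± 1459 and 3487 ± 670 (SD, n = 4 each), a fold of 1.52 with a 95% interval of 0.18 to 1.02 for the log2(fold change). Without bigenic mouse B the log2(fold change) was 0.44 (limma adjusted p-value = 0.0278). The call was lost without bigenic mouse A (limma adjusted p-value = 0.0739) and without nontransgenic mouse A, B or C (limma adjusted p-values = 0.0940, 0.0852 and 0.0700), with log2(fold changes) of 0.51 to 0.61 in these 4 fits.

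*Mbp* encodes myelin basic protein, the major protein that holds the cytoplasmic faces of compact myelin together. Its normalized counts were 26941, 21384, 22634 and 23525 in bigenic mice A to D and 23056, 26878, 29903 and 28876 in nontransgenic mice A to D. Bigenic mice B and C lay below all controls, bigenic mouse D lay above only the lowest control, and bigenic mouse A lay among the controls. The log2(fold change) was -0.20 (standard error 0.10, limma adjusted p-value = 0.148, 95% interval -0.43 to 0.03), and without bigenic mouse B it was -0.15. Among the alternatives run, only with limma array weights, which gave bigenic mouse B a weight of 0.0844, did *Mbp* pass (log2(fold change) = -0.23, adjusted p-value = 0.0120). After quantile normalization its log2(fold change) was -0.08 (limma adjusted p-value = 0.576). The point estimates of *Mbp* and *Mobp*, both genes of compact myelin, thus had opposite signs.

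*Mag* encodes an adhesion protein of the innermost myelin layer that faces the axon. Normalized counts of *Mag* were 2619, 2792, 1854 and 2005 in bigenic mice A to D and 1539, 1825, 1980 and 1744 in nontransgenic mice A to D. Bigenic mice A and B were above every control, bigenic D was just above the highest control, and bigenic C lay among the controls. The log2(fold change) was 0.37 (standard error 0.14, unadjusted p of limma over all genes 0.0244, limma adjusted p-value = 0.0626), with a 95% interval of 0.06 to 0.68. It was 0.27 without bigenic mouse B (limma adjusted p-value = 0.0811), and without bigenic mouse C it was 0.47 and passed (limma adjusted p-value = 0.0250). With limma array weights it was 0.13 (adjusted p-value = 0.202).

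*Mog* encodes a glycoprotein of the outermost myelin surface. Its normalized counts were 1608, 935, 1656 and 1598 in bigenic mice A to D and 1480, 1673, 1857 and 1343 in nontransgenic mice A to D. The bigenic mice other than B lay within 58 normalized counts of one another and inside the control range, and mouse B lay below all 7 other mice. With all mice the log2(fold change) was -0.16 (95% interval -0.57 to 0.25), and it was 0.04 (95% interval -0.18 to 0.26) without bigenic mouse B.

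*Cldn11* encodes the claudin of the tight junctions between myelin layers. The counts of *Cldn11*, normalized as above, were 4533, 2308, 4045 and 4140 in bigenic mice A to D and 3991, 3960, 4351 and 4169 in nontransgenic mice A to D. The controls varied least of the 9 genes, with an SD of 4.39% of the mean. Bigenic mouse A lay above all controls, mice C and D lay inside their range, and again only bigenic mouse B lay below them. The log2(fold change) was -0.18 (95% interval -0.59 to 0.23), and without that mouse it was 0.04 (95% interval -0.10 to 0.18).

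*Cnp* encodes a phosphodiesterase that keeps cytoplasmic channels open within myelin. For *Cnp* the normalized counts were 4772, 5236, 4008 and 4240 in bigenic mice A to D and 3300, 3890, 4501 and 4250 in nontransgenic mice A to D. Bigenic mice A and B were above all controls, and mice C and D lay inside the control range. Its log2(fold change) was 0.20 (95% interval -0.06 to 0.46, limma adjusted p-value = 0.212), and 0.13 without bigenic mouse B.

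*Ugt8a* encodes the enzyme that makes galactosylceramide, a lipid that myelin is rich in. Normalized counts of *Ugt8a* were 1760, 654, 1521 and 1527 in bigenic mice A to D and 1576, 1672, 1798 and 1342 in nontransgenic mice A to D. Bigenic mouse B had less than any other mouse, and the other 3 bigenic mice fell inside the control range. Between the groups the log2(fold change) was -0.31 (95% interval -0.91 to 0.29), the widest interval of the 9 genes with all mice, and without bigenic mouse B it was 0.01 (95% interval -0.21 to 0.23).

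Of the lineage factors, *Olig1* had normalized counts of 1308, 649, 1398 and 1537 in bigenic mice A to D and 1218, 1511, 1570 and 1073 in nontransgenic mice A to D. *Olig2*, which is needed to form the lineage, had 576, 463, 499 and 462 in bigenic mice A to D and 432, 594, 535 and 486 in nontransgenic mice A to D. Bigenic mouse B was below all other mice for *Olig1*, whereas for *Olig2* it was next to bigenic mouse D and inside the control range. The log2(fold change) of *Olig1* was -0.19 (95% interval -0.75 to 0.37), and 0.09 without bigenic mouse B. That of *Olig2* was -0.03 (95% interval -0.29 to 0.23) and 0.01 without that mouse.

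**Figure D2:**
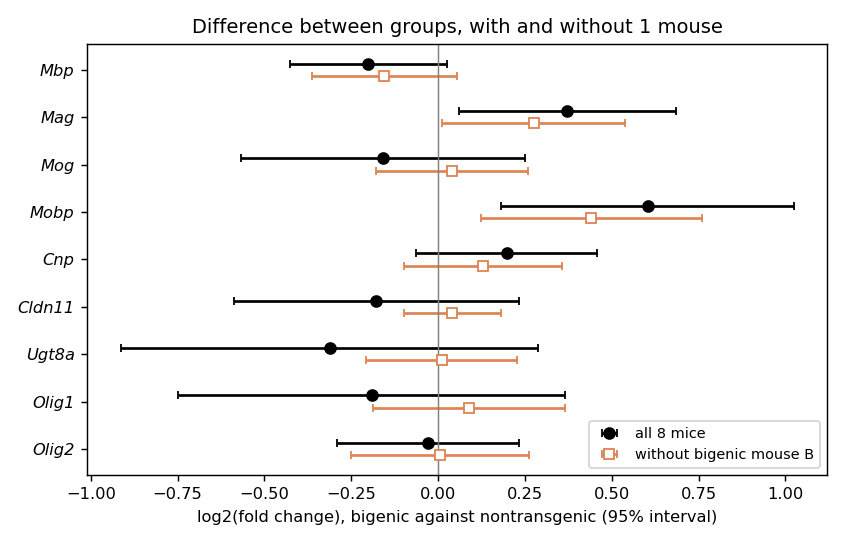
Log2(fold change) of bigenic against nontransgenic mice for each gene, with limma's 95% interval, for all 8 mice (black circles) and without bigenic mouse B (open orange squares). Leaving out the mouse narrowed the interval of Ugt8a from -0.91 to 0.29 down to -0.21 to 0.23, while both intervals of Mobp and of Mag lay above 0.

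Bigenic mouse B split the 9 genes in 2 directions. Against the mean of the other 3 bigenic mice, its *Ugt8a* differed by -59.1%, and its *Olig1*, *Cldn11* and *Mog* differed by -54.0%, -45.5% and -42.3%. Its *Mobp*, *Mag* and *Cnp* differed by 56.5%, 30.7% and 21.0% in the other direction, and its *Mbp* and *Olig2* lay between these, at -0.18 and -0.14 on the log2 scale. Its *Ugt8a* value stood for about 316 reads, with a counting error of 5.62%. The 9 genes spanned a log2 range of 2.37 in this mouse relative to the nontransgenic mean, 0.53 to 0.74 in the other bigenic mice and 0.23 to 0.67 in the nontransgenic mice.

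This mouse also differed from the other bigenic mice across the transcriptome. Its deviation correlated with the GC content of the exons (Pearson r = 0.37 across 10295 genes, which are not independent) and hardly with their length (r = -0.01). Of the genes that were high in this mouse, *Mag* had a GC content of 57.7%, *Cnp* of 54.7% and *Mobp* of 50.6%. Of those that were low in it, *Ugt8a* had 39.9%, *Mog* 50.1%, *Cldn11* 50.4% and *Olig1* 60.8%. Mouse B had the lowest of the 4 bigenic values for 5 of the 9 genes and the highest for 3, against 38.4% and 43.1% of all genes. Of the 88 tested genes on wider oligodendrocyte lists described below, it had the lowest value for 48 and the highest for 19. The part of GC content and depth in these values was not tested further than by removing a GC and length trend from each mouse, after which *Mobp* had a log2(fold change) of 0.57, *Mag* of 0.28, *Cnp* of 0.14, *Mbp* of -0.26, *Mog* of -0.11, *Cldn11* of -0.14, *Ugt8a* of -0.17, *Olig1* of -0.33 and *Olig2* of -0.13. *Mobp* was the 1 gene called among these.

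**Figure D3:**
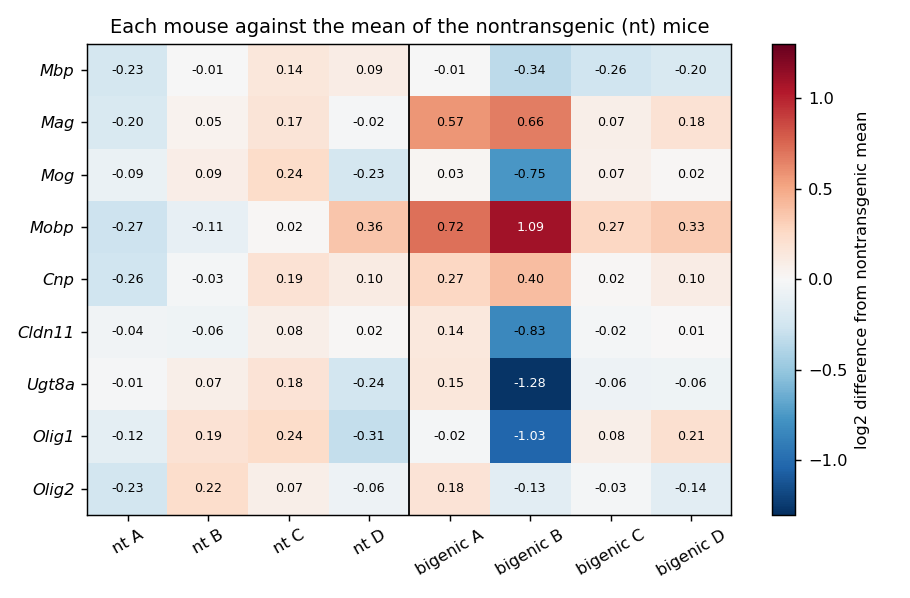
Log2 difference of each mouse from the mean of the 4 nontransgenic mice (nt), by gene, from blue (lower) to red (higher). The column of bigenic mouse B runs from -1.28 for Ugt8a to 1.09 for Mobp, and no other column spans more than 0.74.

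Since each gene was measured beside the others in the same mouse, ratios between them do not depend on the scaling of the mouse. These ratios were looked at after the values were known and carry no test. Of the 36 pairs of genes, 4 had ratios that did not overlap between the groups, while 39.5% of all pairs of tested genes did not. Relative to *Mbp*, *Mobp* was 21.0%, 34.2%, 18.4% and 18.5% in bigenic mice A to D and 12.4%, 11.9%, 11.6% and 15.3% in nontransgenic mice A to D. *Mag* was 9.72%, 13.1%, 8.19% and 8.52% of *Mbp* in bigenic mice A to D and 6.68%, 6.79%, 6.62% and 6.04% in controls A to D. *Cnp* was 17.7%, 24.5%, 17.7% and 18.02% of *Mbp* in bigenic mice A to D and 14.3%, 14.5%, 15.1% and 14.7% in controls A to D. All 4 bigenic mice thus lay above all 4 controls for these 3 ratios, which share *Mbp*. Across all genes, the ratio to *Mbp* was higher without overlap in 22.9% and lower in 4.3%, which is the background for these 3 ratios.

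The 4th such pair was *Mag* to *Olig2*, with *Mag* at 455%, 603%, 372% and 434% of *Olig2* in bigenic mice A to D and 356%, 307%, 370% and 359% in nontransgenic mice A to D. Bigenic mouse C exceeded the highest control by less than 2 percentage points. For *Mog*, *Cldn11*, *Ugt8a*, *Olig1* and *Olig2* the ratios to *Mbp* overlapped between the groups. The same 4 pairs did not overlap after the GC and length trend was removed. Without bigenic mouse B the count was again 4, but it was 3 after quantile normalization, 16 without nontransgenic mouse D and 8 without bigenic mouse C. For any genes, leaving out a mouse can keep or raise such a count but not lower it. The share over all pairs, 39.5%, was computed with all 8 mice, so the counts under these other settings have no matching share.

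**Figure D4:**
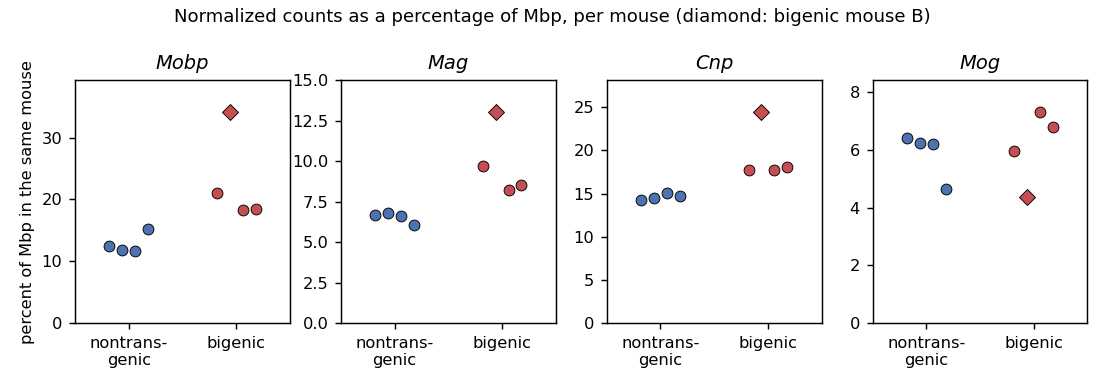
Normalized counts of Mobp, Mag, Cnp and Mog as a percentage of Mbp in the same mouse (linear axes from 0), for nontransgenic (blue) and bigenic (red) mice, with bigenic mouse B as a diamond. The groups were apart for Mobp, Mag and Cnp and mixed for Mog, where bigenic mouse B was the lowest at 4.37%.

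Levels of different genes were compared per kb of merged exon, as CPM of the column total. In the nontransgenic mice, *Mbp* was the most abundant at 155 ± 17.6 (SD, n = 4), followed by *Cldn11* at 107 ± 4.33 and *Cnp* at 52.4 ± 6.93. *Mog* (44.7 ± 6.55), *Mag* (34.9 ± 3.84), *Olig1* (29.6 ± 5.47), *Mobp* (25.7 ± 4.87) and *Ugt8a* (21.3 ± 2.68) followed, each overlapping its neighbour in this order. *Olig2* was the least abundant at 10.1 ± 1.5, with no overlap with *Ugt8a*. In the bigenic mice the same quantity was 39.4 ± 9.66 for *Mobp* and 27.2 ± 9.23 for *Olig1*, so their means stood in the opposite order. The same held for *Mag* at 45.6 ± 8.58 and *Mog* at 41.0 ± 10.7. Within each of these 2 pairs the genes overlapped in both groups. The merged exons of *Mbp*, 8403 bases, include alternative first exons that a single transcript lacks, so its level per kb is lower than it would be over 1 transcript. *Mobp*, with 5 annotated transcripts over 6497 merged bases, *Cnp* with 4, *Mag* with 3 and *Mog* with 2 may be affected likewise. This was not examined, and it limits the order of levels.

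Across the 8 mice, the genes that followed the mean of the 9 most closely on the log2 scale were *Eif3f* (Pearson r = 0.97), *A230072C01Rik* with 2 transcripts (r = 0.96 and 0.95) and *Enpp6* (r = 0.92). Others were *Cebpg*, *Sgce*, *Vcan*, *Gltp* and *Slc22a5*, the last with r = 0.89. *Enpp6* marks oligodendrocytes that have just begun to mature. These values describe 8 points from 2 groups. None of these transcripts passed the limma test, and their log2(fold changes) lay between -0.07 and 0.06.

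Other genes of the lineage were examined on lists covering 107 symbols, of which 88 were tested. Of the 88, 15 were higher and 16 lower in the bigenic mice, with a median log2(fold change) of -0.07, beside 20.5% higher and 15.4% lower among all genes. Without bigenic mouse B, 17 were higher and 19 lower, when 25.3% and 20.2% of all genes were, and the median was -0.01. Many of these genes are also expressed in neurons or astrocytes, which the bulk tissue does not separate. The shares over all genes are also the background for the counts of each list below.

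Among 11 tested genes of the myelin membrane, 2 were called lower and 0 higher, beside 15.4% and 20.5% of all genes. *Mal*, a lipid raft protein of myelin, had a log2(fold change) of 0.03 and was not called. *Gpm6b*, a membrane glycoprotein gene that neurons and astrocytes express as well, fell from 16920 ± 1732 to 10633 ± 1646 normalized counts (log2(fold change) = -0.68, limma adjusted p-value = 0.00272). *Pmp22*, best known from peripheral myelin, fell by 0.51 on the log2 scale (limma adjusted p-value = 0.0296).

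Genes of the contact between myelin and axon were called in both directions, 3 higher and 2 lower of 9 tested. *Cntnap1*, which encodes the axonal Caspr protein at the paranode beside the node of Ranvier, had 8206, 7817, 8014 and 8230 normalized counts in bigenic mice A to D and 5002, 5256, 5558 and 5655 in nontransgenic mice A to D. The groups were well apart, and bigenic mouse B lay close to the other bigenic mice (log2(fold change) = 0.59, standard error 0.07, limma adjusted p-value = 0.000225). *Nfasc*, the neurofascin gene used by both axon and glia, was higher by 0.44 and *Hapln2*, a nodal matrix linker protein made by oligodendrocytes, by 0.38 on the log2 scale. *Cntn1*, the axonal partner of Caspr, fell by 0.26 and *Jam3* by 0.28.

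Of 15 tested genes of mature oligodendrocyte enzymes and cytoskeleton, 3 were called lower and 0 higher, beside 15.4% and 20.5% of all genes. Counts this small give no direction for the list. *Tppp*, a tubulin-binding protein that promotes myelin elongation, had 9623, 8936, 10534 and 10200 normalized counts in bigenic mice A to D and 15160, 14568, 15798 and 13668 in nontransgenic mice A to D. Every bigenic mouse was below every control (log2(fold change) = -0.59, limma adjusted p-value = 0.000484). *Car2*, carbonic anhydrase 2, fell by 0.56 and *Ndrg1* by 0.42 on the log2 scale. *Enpp2*, made by oligodendrocytes and by the choroid plexus, had a log2(fold change) of 0.34 with all mice and of 0.52 without bigenic mouse B, where it passed (limma adjusted p-value = 0.000322).

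In myelin lipid metabolism, 3 of 9 tested genes were higher and 1 was lower. *Arsa*, the sulfatide-degrading enzyme lost in metachromatic leukodystrophy, rose from 606.5 ± 15.0 to 831.5 ± 9.71 normalized counts (log2(fold change) = 0.45, limma adjusted p-value = 0.000829). *Abca2*, a lipid transporter of oligodendrocytes, rose by 0.38 and *Sptlc2*, a subunit of the first enzyme of sphingolipid synthesis, by 0.37, while *Psap*, which encodes the saposins, fell by 0.35. *Fa2h* and *Galc*, which make hydroxylated myelin lipids and degrade galactosylceramide, had log2(fold changes) of -0.09 and 0.06 and were not called.

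Regulators of differentiation were called in both directions. *Sox10* and *Myrf*, the factors that switch on myelin genes, had log2(fold changes) of -0.13 and 0.09, and *Myrf* ranged from 618 to 649 normalized counts among bigenic mice and from 525 to 636 among controls. Of the 6 tested factors, *Zeb2* and *Yy1* were higher, by 0.44 and 0.45, and *Zfp536* was lower by 0.30 on the log2 scale. Among 4 tested inhibitors of differentiation, *Id2* and *Id4* fell by 0.87 and 0.80 (limma adjusted p-values = 0.00738 and 0.00477), and *Sox5* rose by 0.72 on the log2 scale (limma adjusted p-value = 0.0106). All 3 are also expressed by cortical neurons or astrocytes.

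Precursor cell genes gave 1 call in each direction of 8 tested. *Pdgfra*, the growth factor receptor that defines these cells, had 2473, 1762, 2006 and 1945 normalized counts in bigenic mice A to D and 2461, 2858, 2417 and 2174 in nontransgenic mice A to D. The bigenic mice B, C and D were below all controls and bigenic mouse A was not (log2(fold change) = -0.28, limma adjusted p-value = 0.0897). *Cspg4*, the NG2 proteoglycan, had -0.17. *Ptprz1*, which astrocytes also express, fell by 0.53 and *Tnr*, tenascin R of the extracellular matrix, rose by 0.34 on the log2 scale. Of 6 tested genes of newly formed oligodendrocytes, *Sirt2* was the 1 called and was higher (log2(fold change) = 0.37), and *Gpr17* and *Bcas1* had 0.18 and 0.02.

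The lists of proteins acting on the lineage were small. *Hnrnpa2b1*, whose protein binds *Mbp* mRNA for transport into processes, fell by 0.34 and *Kif1b*, a kinesin needed for that transport, rose by 0.30 on the log2 scale, 2 of 5 tested. *Rtn4*, which encodes the myelin inhibitor Nogo and is expressed in neurons too, fell from 21383 ± 1465 to 12119 ± 1603 normalized counts (log2(fold change) = -0.83, limma adjusted p-value = 0.000371). *Rtn4rl2* and *Lrp1*, receptors for myelin inhibitors, rose by 0.60 and 0.46 on the log2 scale. Of 10 tested growth signals, *Nrg1*, the axonal neuregulin, rose from 114 ± 9.43 to 216 ± 29.3 normalized counts (log2(fold change) = 0.91, limma adjusted p-value = 0.00121). *Nrg1* reached the 10 CPM needed for testing in bigenic mice only, so it was tested only because it was high there. *Fgfr2* and *Pdgfa*, which encodes the ligand of *Pdgfra*, fell by 0.44 and 0.76 on the log2 scale.

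**Figure D5:**
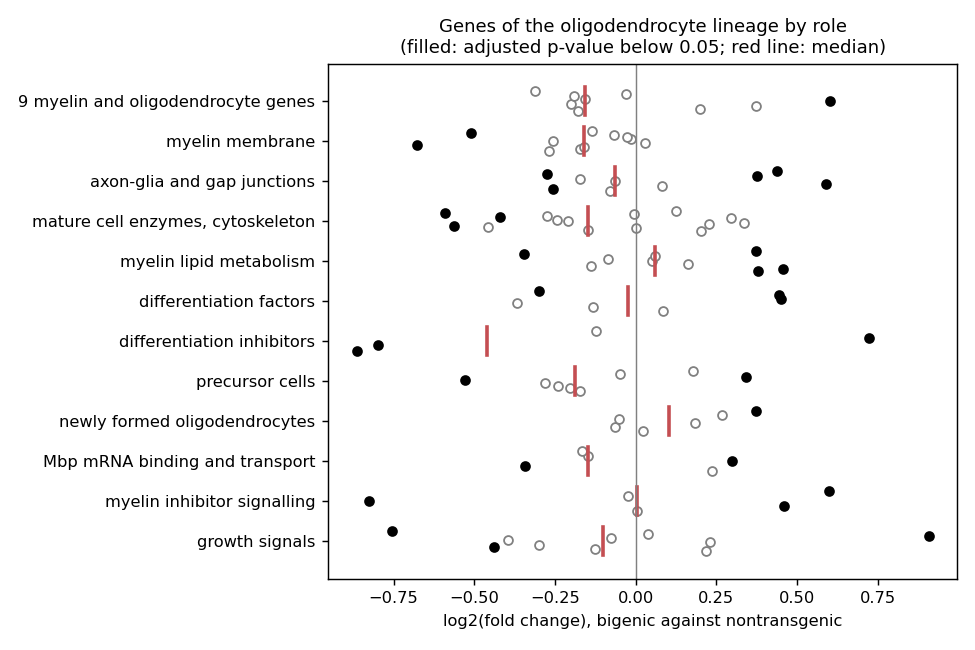
Log2(fold change) of bigenic against nontransgenic mice for each tested gene of the 9 and of the wider lists, by role, with genes passing an adjusted p-value of 0.05 filled and the median of each list as a red line. The 9 genes hold 1 filled point, Mobp at 0.60, and their median of -0.16 lies near that of the myelin membrane genes, also -0.16.

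Some markers of other cell types were called as well, and their part in the oligodendrocyte values was not tested. The background for the counts below is 20.5% of all genes called higher and 15.4% called lower. Without bigenic mouse B 20.2% of all genes were called lower. Of 9 tested microglial markers 5 were lower, also without bigenic mouse B, and their summed normalized counts were 5268 to 6873 in the bigenic and 7057 to 8321 in the nontransgenic mice, led by *P2ry12* (log2(fold change) = -0.65) and *Cx3cr1* (-0.56). Of 10 astrocyte markers 4 were lower, including *Gja1* (-0.43) and *Aqp4* (-0.63), with sums of 127019 to 146638 and 155184 to 166512. The 2 with positive log2(fold changes), *Gfap* (0.04) and *S100b* (0.19), were not called. *Slc1a2* alone, with means of 90026 in bigenic and 106787 in nontransgenic mice, made up most of these sums. Neuronal markers were called 3 times higher and 6 times lower of 14, including *Thy1* (0.77) and *Camk2a* (-0.88), with sums of 180945 to 243363 and 219896 to 238605, and bigenic mouse B had the highest sum of all 8 mice. Endothelial markers were called lower 2 times of 9, *Slco1c1* (-0.47) and *Flt1* (-0.26), with sums of 6654 to 7186 and 7356 to 8533. *Slc2a1* (0.03) and *Kdr* (0.14) had positive values and were not called.

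Of 10 listed choroid plexus markers 5 were tested, and 4 of these were called higher, beside 20.5% of all genes. *F5*, *Clic6* and *Kl* had only 22 to 99 normalized counts in the controls. They reached the 10 CPM needed for testing in bigenic mice only, *F5* and *Clic6* in bigenic mouse A only. A marker this low in controls is tested only where it is high in bigenic mice, so the count of 4 does not describe the whole list. *Ttr*, the transthyretin gene that the choroid plexus expresses strongly, had 18520, 7741, 16795 and 11356 normalized counts in bigenic mice A to D and 801, 236, 835 and 1023 in nontransgenic mice A to D. The 4 were *Ttr* (log2(fold change) = 4.34), *F5* (2.71), *Clic6* (2.40) and *Kl* (2.25), and all 4 bigenic mice lay above all controls for each. *Enpp2*, the remaining one, was not called (limma adjusted p-value = 0.128), and its 5716 normalized counts in bigenic mouse B lay below all 4 controls (6181 to 7237). The summed normalized counts of the 9 myelin and oligodendrocyte genes were 41734 to 49775 in bigenic mice and 39454 to 49975 in controls, so the bigenic range lay inside that of the controls. *Mbp* alone gave most of each sum, 21384 to 26941 in bigenic mice and 23056 to 29903 in controls, so the sum says little about the other genes.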

How the data were processed

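The authors sequenced right-cortex RNA of 4 bigenic and 4 nontransgenic mice as 50-base single reads, trimmed adaptors (cutadapt), mapped reads to mm9 (Bowtie 0.12.7), kept unique hits and counted exons (bedtools). The deposited values are a score, normalized counts that the authors rounded to whole numbers. The scaling is not given in the sources used here. The worth of 1 read was estimated from missing integers (0.648 to 2.07), so 3 reads equal 1.94 to 6.20. The authors' table of fold changes, standard errors, p-values, adjusted p-values and q-values was used for gene symbols only.

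Genes with 10 CPM in at least 1 mouse were tested on log2(value + 1) by limma 3.58.1 in R 4.3.3 (lmFit, eBayes with a trend, two-sided, Benjamini-Hochberg over 10588 genes, threshold 0.05), after checks on simulated data. Fold changes are on that scale. The count tests listed as alternatives were not run because the values are not raw counts. Members and lists were chosen with earlier results of these data known. Named were the members, listed genes (called ones and those with the smallest adjusted p first), 2 or more markers per other cell type, and the 10 transcripts most like the members. Some listed items are not reported here. *Mal*, *Fa2h*, *Galc*, *Sox10*, *Myrf*, *Cspg4*, *Gpr17* and *Bcas1* were named for their roles. Promoter words were chosen after values were seen.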

Additional observations from a re-analysis of the deposited data

Results flagged for a closer look

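*Mog* in bigenic mouse B, with 935 normalized counts, lay far from the other bigenic mice at 1598 to 1656. Its gap to the nearest value was 0.920 of the range of the group, above Dixon's 95% critical value for 4 samples. The lowest and highest values of 18 groups were examined, 1 was picked out, and chance picks out about 1 in 20 groups. *Ugt8a*, *Cldn11* and *Olig1* in the same mouse had gaps of 0.784, 0.781 and 0.742 of the range and did not pass.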

How the results depend on the processing

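*Mobp* was higher under every alternative run, with log2(fold changes) of 0.40 to 0.72 and limma adjusted p-values of 0.00193 to 0.0940. With single mice left out, 0 to 2 of the 9 genes were called higher and 2654 to 4817 of all genes were called. Across the same omissions 4 to 16 of the 36 pairs of genes had ratios without overlap, and the share over all pairs was not computed for them. With array weights 6455 genes were called, 1 of the 9 was lower (*Mbp*), 33 of the wider lists were lower and *Olig1* turned from -0.19 to 0.013 (log2). At an adjusted p below 0.01, 2057 genes, 0 of the 9 higher, and 7 higher and 10 lower of the wider lists were called. With single mice left out, log2(fold changes) ran from -0.235 to 0.0398 for *Mog*, -0.283 to 0.0412 for *Cldn11*, -0.466 to 0.00993 for *Ugt8a*, -0.325 to 0.0888 for *Olig1* and -0.107 to 0.0454 for *Olig2*. The values above 0 came without bigenic mouse B, and for *Olig2* also without bigenic mouse D (0.00652) or nontransgenic mouse B. The cause was not tested. No paired analysis was possible because the columns carry no replicate numbers of the labels. Voom, the GC and length correction and the ratios were added after the data were seen. The shallowest library limits *Ugt8a*, *Olig1* and *Olig2* to counting errors of 5.62%, 5.64% and 6.68% in that mouse.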
